A study of Homo sapiens with 2 samples.

Results

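The feedback inhibitors of MAP kinase signalling examined here are 10 genes taken by name from the deposited tables of 61806 genes. They are 5 dual-specificity phosphatases (DUSP1, DUSP4, DUSP5, DUSP6 and DUSP10), 3 Sprouty genes (SPRY1, SPRY2 and SPRY4) and 2 Sprouty-related genes (SPRED1 and SPRED2). Their RNA was measured in HEL, a human erythroleukemia cell line that the labels give as wild type (WT). One culture received 0.5% DMSO, the vehicle, and the other received L1 at 1 µM, a 3,3′-diindolylmethane derivative, both for 24 h. The labels do not say whether the L1 culture also received DMSO. Each condition has 1 library, with 32556872 counts for DMSO and 27135647 for L1, so no spread between cultures could be estimated and no difference below has a replicate check.

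The MAP kinase cascade carries signals from growth factor and cytokine receptors through RAS, RAF and MEK to the kinase ERK, and parallel branches lead to JNK and p38. The dual-specificity phosphatases remove phosphates from these kinases, whereas Sprouty and SPRED proteins act higher up, between the receptor and RAF. Many of these genes are themselves transcribed when ERK is active, and for that reason DUSP6, SPRY2 and SPRY4 are widely used as readouts of ERK output. In HEL cells the cascade lies downstream of an activating JAK2 mutation.

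All 10 genes had at least 10 counts in at least 1 library, SPRY4 only through the DMSO library, and 8 had at least 100. Counts were scaled by edgeR's TMM method, which makes the DMSO library 1.16 times as large as the L1 library. A log2 ratio below is L1 over DMSO, without a prior count, and the bracketed range is its exact 95% interval (Clopper-Pearson), which covers counting error only. Of the defining genes of the line, 10 erythroid and megakaryocytic genes had between 356 and 40168 counts, while 8 markers of other cell types had at most 6 counts in either library, CDH1 with 6 and 5 and CD14 with 0 and 5. The former went both ways, with 5 of the 10 intervals above 0 and 4 below. Over all genes with at least 100 counts the shares were 30.5% and 36.7%. ITGB3 (log2 ratio -0.73), GFI1B (-0.66) and TAL1 (-0.50), named after their values were seen, were lower with L1. ITGA2B had 40168 counts with DMSO and 35288 with L1. HBG1, a fetal globin gene, had 5620 and 16681 (log2 ratio 1.78) and HBG2 had 20283 and 20372 (0.22), but these near-identical copies may share reads, so their split is uncertain.

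DUSP6 differed most among the well-counted genes. It encodes a cytoplasmic phosphatase that is selective for ERK, and it lies on chromosome 12 (GRCh38, chr12:89347232-89353271, minus strand, ENSG00000139318). It had 2819 counts with DMSO and 1281 with L1. Its FPKM, a level per length of transcript and per size of library, was 23.0 with DMSO and 12.1 with L1. After scaling, the L1 library was 1.90-fold lower, a log2 ratio of -0.92 (-1.02 to -0.83). In bulk RNA, less RNA per cell and fewer cells that carry it cannot be told apart. Among the 12365 genes with at least 100 counts, DUSP6 lay at percentile 3.29 of the log2 ratios. A share of counts needs no scaling of the libraries. DUSP6 supplied 24.7% (23.9% to 25.5%) of all counts over the 10 genes in DMSO and 16.7% (15.9% to 17.6%) in L1.

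An antisense gene, AC024909.2, covers 40.5% of the exonic bases of DUSP6 on the opposite strand, and no strand setting of the counting is given in the sources used here. It had 85 counts with DMSO and 45 with L1, a log2 ratio of -0.70 (-1.26 to -0.17). With both genes summed the log2 ratio of the locus was -0.92. Whether reads of the antisense gene were counted as DUSP6 was not tested. Read in the direction of transcription, none of the 31-base words in the DUSP6 transcripts occurs in a transcript of another gene. Reverse complements were not compared, so this says nothing about the bases shared with the antisense gene.

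Short stretches before a RefSeq transcript start hold an ETS core in DUSP6 and SPRY1 and a cAMP response element in DUSP1. ERK-linked factors are known to bind such letters. RefSeq promoter windows (GRCh38.p14, 250 bases before to 50 after each start) were at hand for 8 of the 10 genes, in 13 windows. Capitals mark a match to the ETS core CGGAAG, on either strand, in DUSP6 and SPRY1, and to the cAMP response element TGACGTCA, which reads the same on both strands, in DUSP1. The stretches are chr12:89352546-89352575 (minus strand), chr4:123398308-123398337 (plus strand) and chr5:172771302-172771331 (minus strand), each written in the direction of transcription.
DUSP6: cggcaacagcccCTTCCGcagcacgctcat
SPRY1: gccctccgcagcCGGAAGggggccgcgggg
DUSP1: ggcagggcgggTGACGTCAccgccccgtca
Counted from the start of its window's transcript, the match begins at -62 in DUSP6, -66 in SPRY1 and -125 in DUSP1. The DUSP6 stretch lies in an untranslated exon of a longer GENCODE transcript. SPRY1 has 2 windows, and its stretch comes from the one inside the annotated gene, while the window at the first start has no match. The ETS core was also found after the start of SPRED2. It was thus in 3 of the 13 windows, near its share of 19.5% of all 35116 windows. The cAMP response element was in 1 of the 13, against 1.85% of all windows. The AP-1 element TGACTCA was in 1 of the 13, in SPRED2, against 4.95%. With so few windows these counts cannot be set apart from the shares. DUSP6 and SPRY1 both hold the ETS core, and their log2 ratios were -0.92 and -0.23. A match is only a run of letters, and no binding was measured.

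The log2 ratios of the nuclear, growth factor-inducible phosphatases were closer to 0, with wider intervals. DUSP1, an early-response phosphatase of p38, JNK and ERK (chr5:172768090-172771195), had 265 counts with DMSO and 189 with L1, with FPKM values of 4.14 and 3.42. Its log2 ratio was -0.27, and the interval ran from -0.55 to just above 0. DUSP5, a nuclear phosphatase that is selective for ERK (chr10:110497838-110511544), was at nearly the same count in both libraries, 151 in DMSO and 157 in L1. After scaling this gave a log2 ratio of 0.27 (-0.06 to 0.60), so a difference in DUSP5 was not detectable at this depth.

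DUSP4, another nuclear phosphatase and an ERK-induced gene in many tumours (chr8:29333064-29350668), was the least abundant gene with an FPKM value. It had 46 counts with DMSO and 30 with L1, with FPKM values of 0.199 and 0.150. The difference was not resolved either, at a log2 ratio of -0.40 (-1.12 to 0.29). The log2 ratio of DUSP6 was lower than that of DUSP1 by 0.65 (difference -0.65, interval -0.94 to -0.36). This comparison within each library needs no scaling.

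DUSP10, a phosphatase of JNK and p38 that largely spares ERK (chr1:221701424-221742176), was slightly higher in the L1 library. Its counts were 527 in DMSO and 524 in L1, and its FPKM was 5.86 and 6.76. The log2 ratio was 0.20 (0.03 to 0.38), and with DESeq2 size factors the interval included 0. The log2 ratio of DUSP6 minus that of DUSP10 was -1.13 (-1.33 to -0.93), and that of DUSP5 minus that of DUSP6 was 1.19 (0.85 to 1.54).

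**Figure D1:**
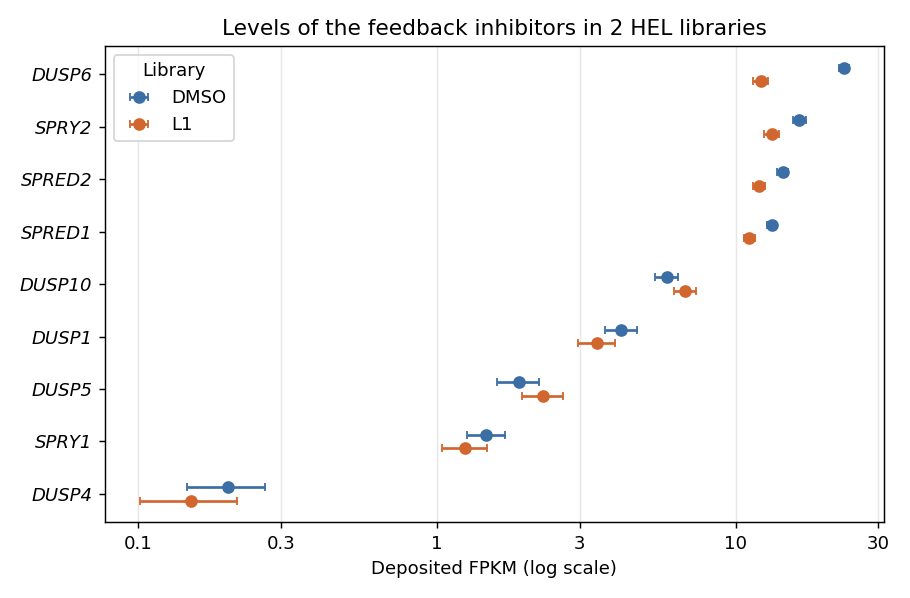
Deposited FPKM values (horizontal axis, log scale) of the 9 genes that have one, in the DMSO library (blue) and the L1 library (orange), with bars for the 95% Poisson interval of each library's own count. DUSP6 stood highest in DMSO at 23.0 and next to SPRY2, SPRED2 and SPRED1 in L1 at 12.1, whereas DUSP5 and DUSP10 lay to the right of their DMSO value.

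The Sprouty proteins are membrane-associated inhibitors that act between receptor tyrosine kinases and RAF. SPRY2 (chr13:80335976-80340951) was the only abundant one, with 1666 counts with DMSO and 1163 with L1 and FPKM values of 16.3 and 13.2. Its log2 ratio was -0.31 (-0.41 to -0.20), or 1.24-fold lower in the L1 library. SPRY1 (chr4:123396795-123403760) had 184 counts with DMSO and 135 with L1, a log2 ratio of -0.23 whose interval, -0.56 to 0.09, included 0. The ratios of these 2 genes differed by 0.07 (-0.28 to 0.42), less than counting error.

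SPRY4 (chr5:142310427-142326455) was close to absent in both libraries. It had 14 counts with DMSO and 2 with L1 and is listed with no FPKM value. At a log2 ratio of -2.59 (-5.77 to -0.47), the size of this difference is poorly known. SPRY4 was nonetheless the single gene of the 10 that was past 2-fold.

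SPRED1 (chr15:38252326-38357249) and SPRED2 (chr2:65310851-65432637) encode membrane proteins that bring the RAS-inactivating protein NF1 to the membrane. SPRED1 had the most counts of the 10 genes, 3250 in DMSO and 2358 in L1, and SPRED2 had 2509 and 1809. Per length both were at a similar level, with FPKM values of 13.2 in DMSO and 11.1 in L1 for SPRED1 and of 14.3 and 12.0 for SPRED2. Their log2 ratios were -0.25 (-0.33 to -0.17) and -0.26 (-0.35 to -0.17). The difference between them was 0.01 (-0.11 to 0.13), and that between SPRY2 and SPRED2 was -0.05 (-0.19 to 0.09).

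By FPKM the order in the DMSO library was DUSP6, SPRY2, SPRED2, SPRED1, DUSP10, DUSP1, DUSP5, SPRY1 and DUSP4. Of these neighbours, DUSP5 and SPRY1 alone had overlapping counting intervals. In the L1 library SPRY2 came first, and the intervals of each neighbouring pair among SPRY2, DUSP6, SPRED2 and SPRED1 overlapped. With counts divided by the length of merged exons, DUSP6 ranked 1 in DMSO and 4 in L1, and all 9 genes kept their FPKM rank in DMSO and 6 did in L1.

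Set against all genes, the 10 were mostly lower by a small amount. The median log2 ratio was -0.27, with 8 genes below 0 and 2 above, against a median of -0.0040 over the 18123 genes in which 1 library or both reached 10 counts (prior count of 2). Past 2-fold, 1 gene of the 10 was lower, SPRY4, where 4.83% of all genes were, and 0 were higher, where 7.12% were. Among the 8 genes with at least 100 counts, 4 had a whole counting interval below 0 (DUSP6, SPRY2, SPRED1 and SPRED2), against 36.7% of all genes of that depth. DUSP10 alone had one above 0, against 30.5%. With so many genes of this depth on either side, an interval clear of 0 is common, and only the size of the DUSP6 ratio set it far from the middle of the distribution.

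**Figure D2:**
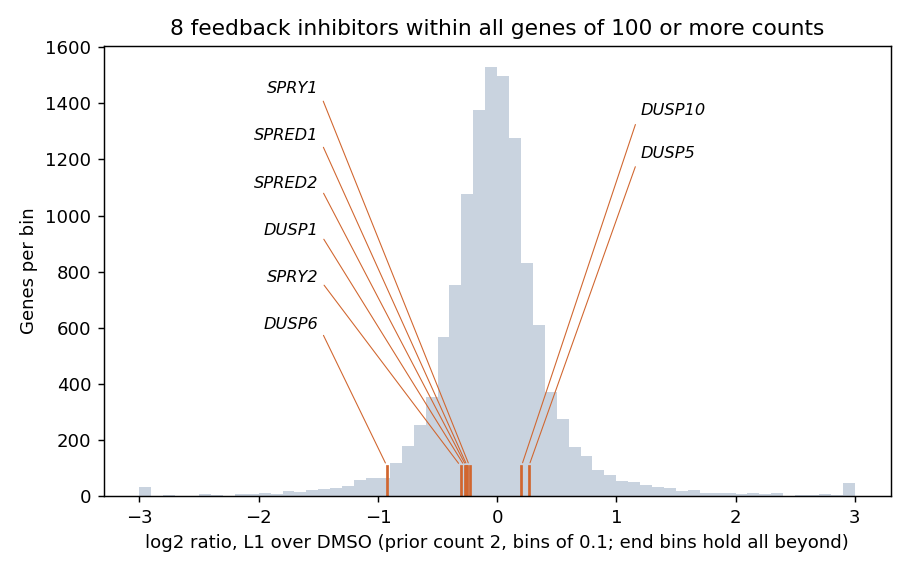
Number of genes (vertical axis) by log2 ratio of L1 over DMSO with a prior count of 2 (horizontal axis, bins of 0.1), for the 12365 genes with at least 100 counts in 1 library. Orange marks show the 8 feedback inhibitors of that depth. DUSP6 lies in the lower tail at -0.92, and the other 7 lie within the main peak.

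Further members of the 3 families were examined, namely DUSP2, DUSP7, DUSP8, DUSP9, DUSP16, SPRY3 and SPRED3. No other dual-specificity phosphatases were included. DUSP7, the closest relative of DUSP6 and likewise a cytoplasmic ERK phosphatase, had 4336 counts with DMSO and 1791 with L1. Its FPKM was 24.1 with DMSO and 11.5 with L1. Its log2 ratio was -1.06 (-1.14 to -0.98), at percentile 2.53 of genes with at least 100 counts. DUSP9, the other gene of that class, was at 3 counts in both libraries. Among the phosphatases examined that had at least 100 counts, DUSP6 and DUSP7 thus had the most counts and the lowest ratios. The log2 ratio of DUSP7 was lower than that of DUSP6 by 0.14 (0.01 to 0.26).

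DUSP8, DUSP10 and DUSP16, which act mainly on JNK and p38, had log2 ratios above 0. DUSP16 had 114 counts with DMSO and 139 with L1, a log2 ratio of 0.50 (0.13 to 0.87). DUSP8 had 27 counts with DMSO and 46 with L1, a log2 ratio of 0.98 (0.27 to 1.72). The intervals of DUSP8, DUSP10 and DUSP16 lay above 0, as did 30.5% of those of all genes with at least 100 counts, a depth that DUSP8 does not reach, and that of DUSP10 included 0 with DESeq2 size factors. Their summed counts of 668 in DMSO and 709 in L1 gave a log2 ratio of 0.30 (0.14 to 0.45). DUSP10 supplied 527 of these counts in DMSO and 524 in L1, so the sum reflects mostly that gene. The summed cytoplasmic ERK phosphatases gave -1.01 (-1.07 to -0.94), and the summed nuclear phosphatases DUSP1, DUSP2, DUSP4 and DUSP5 gave -0.10 (-0.28 to 0.07). These classes are textbook ones, but they were set out after the values had been seen.

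The lesser Sprouty and SPRED genes were not resolved. DUSP2, a nuclear phosphatase, had 162 counts with DMSO and 125 with L1 (log2 ratio -0.16, -0.51 to 0.18). SPRY3 had 131 and 95 counts (-0.25, -0.65 to 0.14), and SPRED3 had 37 and 22 (-0.54, -1.37 to 0.26). All 4 Sprouty and all 3 SPRED genes had a log2 ratio below 0, but the intervals of SPRY1, SPRY3 and SPRED3 included 0. The median of all genes was -0.0040 (prior count of 2), so a ratio below 0 is common in itself. The intervals of SPRY2, SPRED1, SPRED2 and SPRY4 lay wholly below 0, as did 36.7% of those of all genes with at least 100 counts, and SPRY4 passed the minimum of 10 counts only through the library where it was higher.

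**Figure D3:**
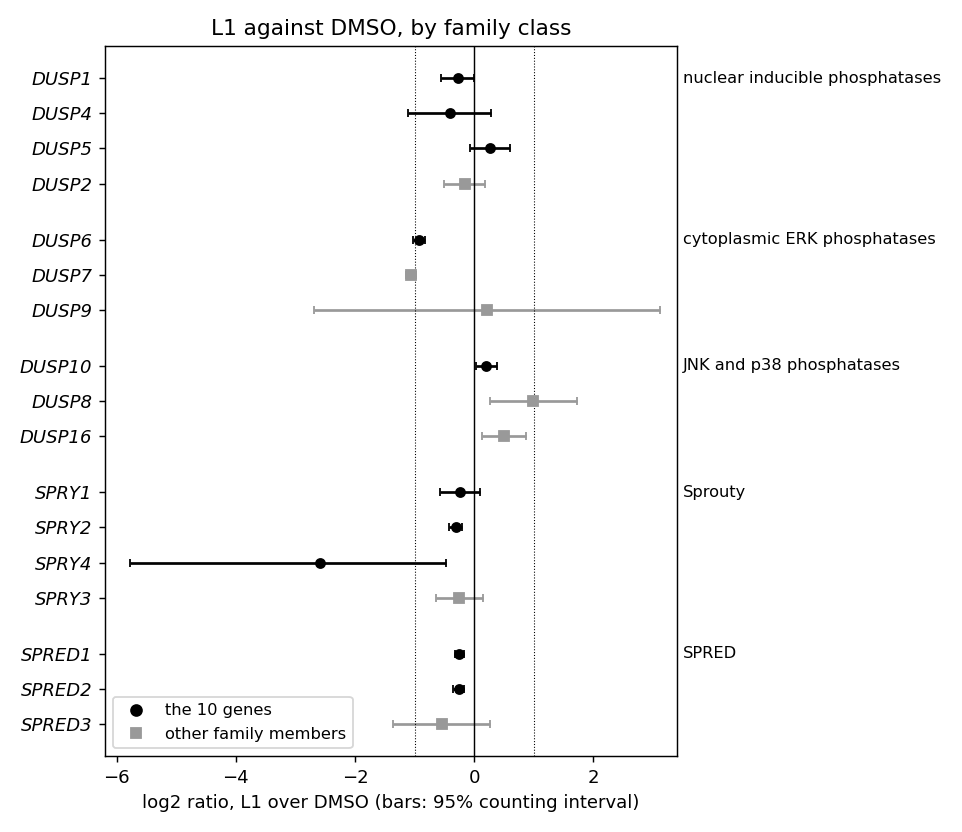
Log2 ratio of L1 over DMSO (horizontal axis) with its 95% counting interval for the 17 genes examined, grouped by class, with dotted lines at 2-fold. Black circles are the 10 genes and grey squares the other family members. DUSP6 at -0.92 and DUSP7 at -1.06 sit apart from the other phosphatases, and DUSP8, DUSP10 and DUSP16 sit above 0.

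A list of 17 ERK-dependent transcripts and their transcription factors, other than the feedback inhibitors, went both ways. Of the 15 genes with enough counts, 1 was past 2-fold upward and 1 downward, against 7.12% and 4.83% of all genes. The median log2 ratio was -0.02. ETV1, an ETS factor, was lower, with 1065 counts with DMSO and 452 with L1 (log2 ratio -1.02, -1.19 to -0.86). ETV5, of the same ETS subfamily, had 2647 and 1556 counts (-0.55, -0.64 to -0.46). MYC was higher, with 724 counts with DMSO and 1527 with L1 (1.29, 1.16 to 1.42). SRF, which partners the ternary complex factors, was near 0 (-0.02, -0.09 to 0.05).

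Other genes of that list were picked after their values were seen. CCND1, which encodes cyclin D1, had 2719 counts with DMSO and 1204 with L1, a log2 ratio of -0.96 (-1.06 to -0.86). ETV4 had 1279 and 702 counts (-0.65, -0.79 to -0.52). EGR1, an immediate early gene, had 564 counts with DMSO and 952 with L1, a log2 ratio of 0.97 (0.82 to 1.12). Exons of CCND1, ETV4 and ETV5 overlap those of other genes, and with these summed the log2 ratios were -0.76, -0.20 and -0.43. The ETV4 sum holds mostly counts of DHX8, a gene on the opposite strand with 3131 in DMSO and 2619 in L1. DHX8 shares 68 exonic bases with ETV4. Of the 14 genes of this list with at least 100 counts, 5 had an interval above 0 and 6 below. Over all genes of that depth the shares were 30.5% and 36.7%, so these counts are near the background.

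The genes of the RAS to ERK cascade itself stayed near the middle of the distribution. Out of 25 genes, 24 had enough counts. Of those, 1 was at least 2-fold higher and 0 were lower, against 7.12% and 4.83% of all genes. Their median log2 ratio was -0.04. The one past 2-fold was SOS1, an activator of RAS, with 3005 counts with DMSO and 5537 with L1 (1.09, 1.03 to 1.16). PTPN11, which encodes the phosphatase SHP2, had the most counts, 12733 in DMSO and 8348 in L1 (-0.40, -0.44 to -0.36). RPL6, on the opposite strand, shares 111 exonic bases with PTPN11. Summed with RPL6 the log2 ratio was -0.14, but that sum holds mostly RPL6, with 47512 counts in DMSO and 38668 in L1. GRB2, the adaptor that holds SOS1, had 5386 and 5154 (0.15, 0.09 to 0.20). MAPK3 (-0.12, -0.28 to 0.04) and NF1 (0.42, 0.34 to 0.50), the partner of the SPRED proteins, were named after their values were seen. Phosphorylation was not measured.

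**Figure D4:**
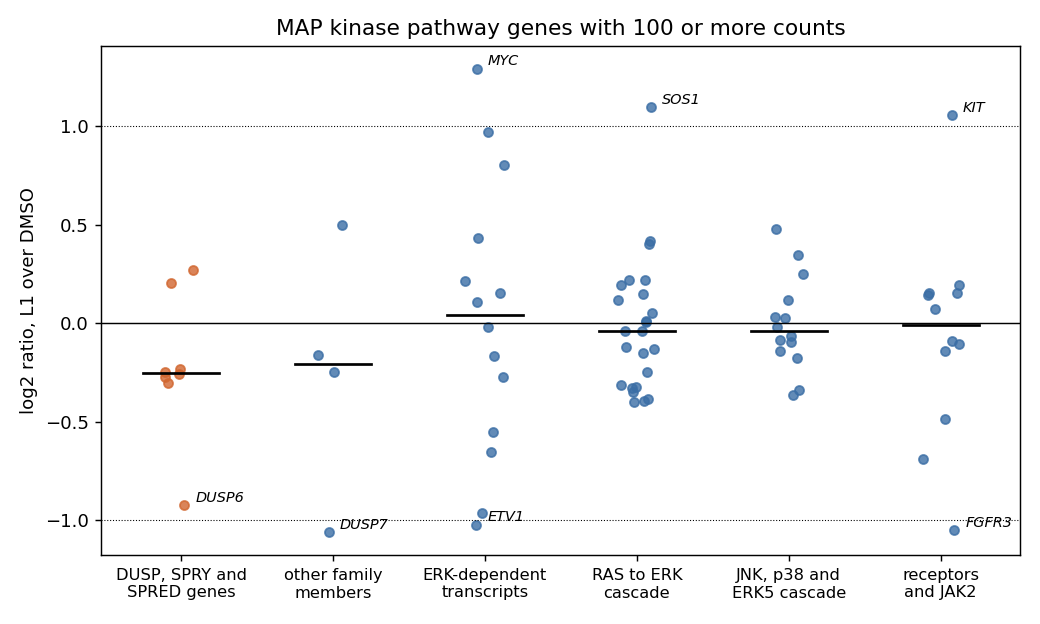
Log2 ratio of L1 over DMSO (vertical axis) for the genes with at least 100 counts in each list, 1 point per gene, with a bar at the median and dotted lines at 2-fold. The feedback inhibitors (orange) have a median of -0.25 with DUSP6 at -0.92, and the RAS to ERK cascade has a median of -0.04 with SOS1 at 1.09.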

How the data were processed

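HEL cells with 0.5% DMSO or 1 µM L1 for 24 h gave 1 library each. Reads were aligned by the authors with HISAT2 2.1.0; the submitters' processing notes also name fastp 2.0, StringTie and hg38. The authors deposited raw counts per Ensembl gene, without normalization, and FPKM values for 13924 genes, where 1 malformed row per library was left out. For the 9 genes that have both, ratios of FPKM equal the TMM-scaled count ratios. The annotation, counting program and strand setting are not given in the sources used here. Symbols, matched for 58372 genes, came from the FPKM tables, a table of gene names and GENCODE, and positions, exons and transcripts from GENCODE release 29, which holds 58254 of the 61806 identifiers.

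TMM factors were computed with edgeR 4.0.16 and size factors with DESeq2 1.42.0 in R 4.3.3, and the rest with Python 3.11.15 and scipy 1.17.1. No test was run. Counts across all genes used a prior count of 2, a minimum of 10 counts in 1 library and a 2-fold threshold. Intervals for differences between 2 genes are exact conditional ones. The calculations were tested on simulated Poisson counts with 200 changed genes. Those counts held no spread between cultures, so that check covers the arithmetic and counting error only. Differences between libraries may be technical as well as biological.

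The 10 genes and the gene lists were chosen with earlier results of these data known. In the other lists, genes past 2-fold with at least 100 counts and the 2 with the most counts were named, along with genes that overlap one of the 10. Motifs were chosen after matches to other spellings and to E-box, GC-box and CArG motifs had been looked at. The alternatives were other scalings, prior counts, minimum counts and thresholds, the FPKM values, protein-coding genes only, and overlapping genes summed.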

Additional observations from a re-analysis of the deposited data

How the results depend on the processing

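No paired analysis was possible because neither condition was repeated. All 58 log2 ratios of the 10 genes computed under other scalings, FPKM values or summed overlapping genes stayed within the gene's counting interval. The FPKM ratio of the 9 genes listed repeats the TMM value, since those levels carry the same relative library sizes, and is no separate check. That of DUSP6 ranged from -0.96 to -0.87. The median over the genes stayed between -0.30 and -0.22. The median of all genes lay between -0.04 and 0.05 over the 4 scalings.

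The 1 gene past 2-fold lower, SPRY4, has few counts, and the number was 0 with at least 10 counts in both libraries, with at least 100 counts in the higher library, when the whole interval had to pass 2-fold, and with the FPKM ratio, log2(FPKM + 1) or log2(FPKM + 0.1), which do not list SPRY4. At 1.5-fold it was 2, with DUSP6. With DESeq2 size factors the number of intervals above 0 was 0 instead of 1, as DUSP10 no longer passed, and 6 instead of 5 lay below 0. With total counts, 2 ERK-dependent transcripts were at least 2-fold higher and 0 lower. The sums over CCND1, ETV4, ETV5 and PTPN11 and their overlapping genes were an alternative chosen after seeing the data. Counts limit DUSP4, SPRY4, DUSP8, DUSP9 and SPRED3 most.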

Other observations

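The receptors that feed the RAS to ERK cascade in blood cells went both ways. Of 20 such genes, JAK2 included, 17 had enough counts, and the median log2 ratio was -0.09. Past 2-fold, 2 were upward and 3 downward, against 7.12% and 4.83% of all genes, or 2 downward with total counts. Of these, PDGFRA (7 and 23 counts), CSF1R (36 and 2) and PDGFRB (15 and 4), named after their values were seen, reached 10 counts only in the library where they were higher. KIT, the stem cell factor receptor, had 8361 counts with DMSO and 14979 with L1, a log2 ratio of 1.05 (1.02 to 1.09). FGFR3, a fibroblast growth factor receptor, had 752 counts with DMSO and 313 with L1 (-1.05, -1.25 to -0.86). JAK2 had 9323 and 7285 counts (-0.14, -0.19 to -0.10).

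Of the 17 genes of the JNK, p38 and ERK5 branches, 16 had enough counts. The branches include the JNK and p38 kinases on which DUSP10, DUSP8 and DUSP16 mainly act. None was at least 2-fold higher and 1 was at least 2-fold lower, against 7.12% and 4.83% of all genes. The median log2 ratio was -0.04. MAP3K5, a stress-activated kinase, had 2622 counts with DMSO and 2162 with L1 (-0.07, -0.15 to 0.02), and MAP3K11 had 2066 and 2115 (0.25, 0.16 to 0.34). MAPK14, which encodes p38 alpha and was named after its values were seen, had 1402 counts with DMSO and 1684 with L1 (0.48, 0.37 to 0.58). The one gene past 2-fold, MAPK10, which has too few counts for the naming rule, had 65 and 15 counts (-1.90, -2.82 to -1.08). Summed with ARHGAP24 and PTPN13, which overlap it, the log2 ratio was 0.01. PTPN13 had 2179 counts with DMSO and 1974 with L1, so that sum reflects mostly PTPN13 and not MAPK10.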
